A study of Drosophila melanogaster with 3 samples.

Results

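Of 7056 reproducible Nerfin-1-GFP ChIP-seq summits in Drosophila melanogaster embryos, 218 lay at the start of a non-coding gene and away from protein-coding promoters. A summit is the base of highest signal within a called peak. A summit was taken when it lay at most 500 bp from a transcript start of a non-coding gene. It also had to lie more than 500 bp from every protein-coding start. Within the reproducible list, neither peak strength nor gene function entered the choice. That list is itself the 7056 strongest peaks of the list for the pooled replicates, so weaker summits were left out. The embryos came from a transgenic line that stably expresses Nerfin-1 with a C-terminal GFP. They were collected at 4 to 16 h as whole organisms of mixed sex, and GFP was precipitated with an anti-GFP antibody. The 3 libraries, which the labels call biological replicates, form 1 group, and no second genotype, stage or treatment was compared. The labels do not give the extent of the transgene, the promoter that drives it or the state of the endogenous nerfin-1 alleles. Embryos were pooled, so every value is an average over all tissues.

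Nerfin-1 is a zinc-finger transcription factor of the INSM family that is made in newly formed neurons and keeps them from reverting to neuroblasts, and it can act with the TEAD factor Scalloped. Non-coding genes make long RNAs, some of them precursors of microRNAs, and the small RNAs of splicing, translation and RNA modification. The microRNA miR-279 is known in the fly olfactory system to hold back nerfin-1 itself.

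The summits named most often in what follows are shown by the 101 bases around them on the strand of the non-coding gene, 5′ to 3′, from the RefSeq release 6 genome, whose coordinates are those of dm6. Capitals mark any of 12 transcription factor or promoter words listed further on. The first 3 are the strongest at a long, an antisense and a microRNA gene. CR31044 and CR45919 are the primary transcripts of mir-279 with mir-996 and of mir-124, and CR46036 and CR45688 hold strong summits with GAGAG, which reads CTCTC on the opposite strand. CR45919 and CR45688 were chosen for display after their values were seen.
CR46200, chr3L:901592-901692, plus strand: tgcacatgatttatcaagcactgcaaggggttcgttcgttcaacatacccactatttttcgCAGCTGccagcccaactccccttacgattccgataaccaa
asRNA:CR44429, chrX:15298425-15298525, minus strand: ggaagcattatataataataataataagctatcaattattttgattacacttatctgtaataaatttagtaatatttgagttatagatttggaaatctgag
mir-9378, chr2L:10752052-10752152, minus strand: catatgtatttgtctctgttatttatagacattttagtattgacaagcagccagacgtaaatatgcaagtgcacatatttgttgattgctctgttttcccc
CR31044, chr3R:29214388-29214488, plus strand: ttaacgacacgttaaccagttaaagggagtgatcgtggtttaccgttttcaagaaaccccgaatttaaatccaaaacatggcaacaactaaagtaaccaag
CR45919, chr2L:17560729-17560829, plus strand: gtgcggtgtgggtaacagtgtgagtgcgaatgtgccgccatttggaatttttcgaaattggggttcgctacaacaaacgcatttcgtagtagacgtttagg
CR46036, chr3R:17700571-17700671, plus strand: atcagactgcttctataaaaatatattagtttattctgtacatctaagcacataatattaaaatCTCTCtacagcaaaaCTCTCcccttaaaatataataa
CR45688, chr3L:17367145-17367245, plus strand: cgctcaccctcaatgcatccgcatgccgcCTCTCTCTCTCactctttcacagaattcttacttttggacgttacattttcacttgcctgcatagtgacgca

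The 218 summits made up 3.09% of the list (Wilson 95% interval 2.71 to 3.52%), beside 3317 protein-coding promoter summits and 3521 distal summits, which lay more than 500 bp from both kinds of start. Bases that meet the rule take up 1.95% of the 6 chromosome arms, so the share of summits was 1.59 times the share of bases. For protein-coding promoters the same ratio was 4.10. Applied to the equally long list of strongest peaks of each replicate, the rule took 3.20% in replicate 1, 2.57% in replicate 2 and 3.40% in replicate 3. All 3 shares were above the share of bases, with a mean difference of 1.11 ± 0.437 percentage points (SD, n = 3) and a p of 0.25 in an exact two-sided sign-flip permutation test, the smallest that 3 replicates allow. The summits did not gather among the strongest peaks: 4 blocks of 1764 summits, from the strongest to the weakest, held 55, 47, 60 and 56 of them. Among the 22944 weaker summits of the pooled list, 3.06% met the rule. Another 158 summits near a non-coding start were also within 500 bp of a coding start and are not counted.

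The 218 summits belonged to 202 genes, 16 of which had 2. The median distance from the nearest non-coding start was 202 bp, against 115 bp from the nearest coding start for protein-coding promoter summits. Within 100 bp of the start lay 55 of the 218 (25.2%), against 44.6% of protein-coding promoter summits. There were 122 upstream and 96 downstream of the start. At the edge of the rule, 13 lay 451 to 500 bp from the start, while 21 distal summits lay 501 to 550 bp from one. The label of a start site is thus loose for many: 86 fell in a non-coding exon, 61 in an intron of a protein-coding gene, 5 in an untranslated or other non-coding exon part of one and 1 in a coding exon. Of the 67 inside a protein-coding gene, 42 had their non-coding gene on the opposite strand from the host, 24 on the same strand and 1 had hosts on both strands. The median distance to the nearest coding start was 3053 bp, with 36 under 1000 bp and 69 over 5000 bp. Another summit of the list lay within 1 kb of 72 of them. No share over the whole list was set beside this count, so it does not show whether these summits cluster more than others.

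The strongest summits lay at long non-coding RNAs that carry only a number. Each value that follows is a rank by deposited signal within a list, in which 1 is the strongest. A replicate rank is that of the strongest summit within 100 bp among the 30000 peaks of that replicate. At CR46200 the summit, at chr3L:901642 and 246 bp upstream of the start, ranked 58 in the reproducible list and 26, 500 and 18 in replicates 1, 2 and 3. It was high in every replicate and lower in replicate 2 than in the other 2. CR46200 lies on the same strand as nerfin-1, and this summit is 7470 bp before the nerfin-1 start. Within 20 kb of that start the list holds 19 summits, of which only the 2 of CR46200 (the second ranked 5884) met the rule. A transgene copy of this region could add reads here, and its part in these ranks was not tested.

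CR31840 had the summit ranked 69, 14 bp inside the transcript, with 87, 36 and 141 in replicates 1, 2 and 3. CR44339, 4212 bp from the start of the Polycomb group gene Psc, had the one ranked 94, with 133, 54 and 187. In both genes replicate 2 gave the best rank, the reverse of CR46200. In an intron of osa, which encodes a subunit of the Brahma chromatin remodelling complex, the CR46036 summit ranked 225, with 327, 156 and 364 in the replicates. The CR44810 summit, 4526 bp from slbo, a C/EBP transcription factor gene, ranked 291, with 439, 182 and 556. The antisense RNA CR44429 starts within an intron of gce, which encodes a juvenile hormone receptor, and its summit ranked 310, with 625, 165 and 767. The CR45217 summit lay in an intron of mask, which encodes a cofactor of the Hippo pathway, and ranked 564, with 565, 781 and 432. CR42657, whose summit was 672 bp from the start of the CBP gene nejire (nej), ranked 366, with 311, 514 and 371. Also among the 15 strongest were the summit at CR31044, the transcript of mir-279 and mir-996, ranked 149, and those at CR44760, CR30009, CR44861, CR45352, CR44676 and CR43626, with ranks between 211 and 567. All 15 of these strongest summits were among the top 7056 of every replicate, though their own order changed between replicates. They were picked for their strength in a list made from the same reads, so this is no separate measure of reproducibility.

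**Figure D1:**
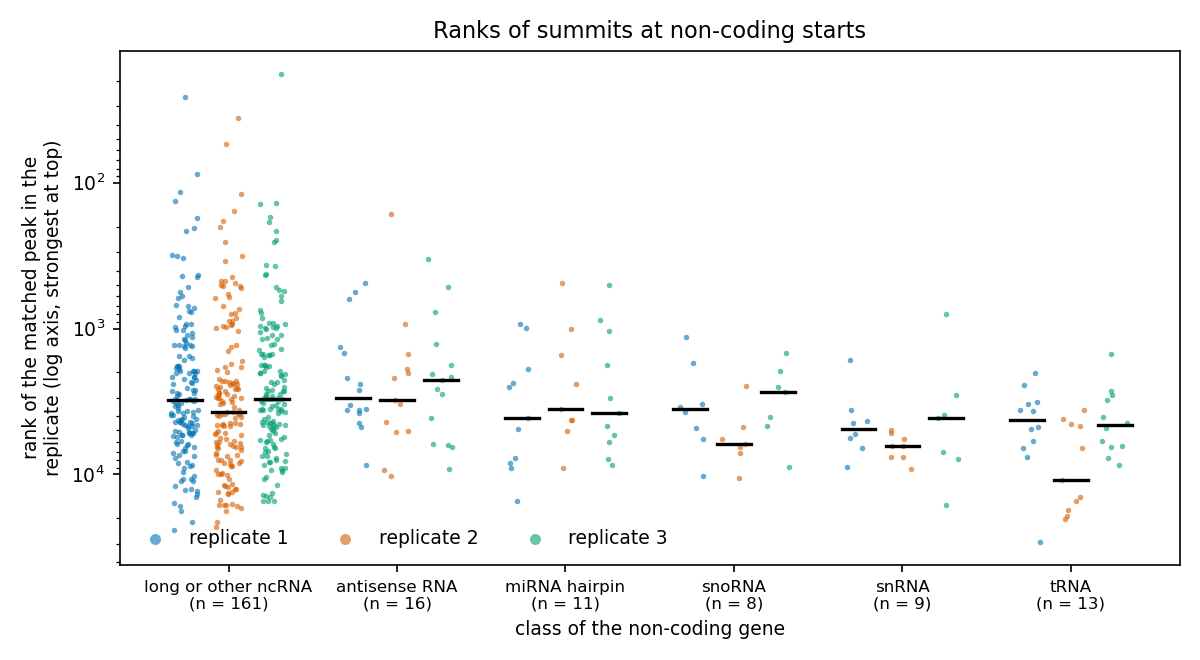
Rank of the matched peak in replicates 1, 2 and 3 (vertical log axis, strongest at the top) for each summit with a match, by class of its non-coding gene. Each point is a summit and each black line a class median; for tRNA genes the median is 4215.5 in replicate 1, 10993 in replicate 2 and 4622.5 in replicate 3.

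Primary microRNA transcripts were described from the 22 genes that RefSeq lists with a pri-mir synonym, a list drawn up after the values were seen. Of the 21 that start away from coding starts, 8 had a summit (38.1%), beside 7.49% of all 2922 non-coding genes with such a start and 8.69% of the long RNA class. These 8 genes held 9 summits, 6 of them within 100 bp of a start. All 9 were found among the 7056 strongest peaks of replicates 1 and 3, and 4 of them in replicate 2. The strongest was at CR31044, the transcript of mir-279 and mir-996: 124 bp upstream of its start, it ranked 149, with 174, 120 and 256 in replicates 1, 2 and 3. Here the replicates differed little. A further summit, 398 bp before the mir-279 hairpin and inside CR31044, ranked 2591, with 1883, 4210 and 1790.

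**Figure D2:**
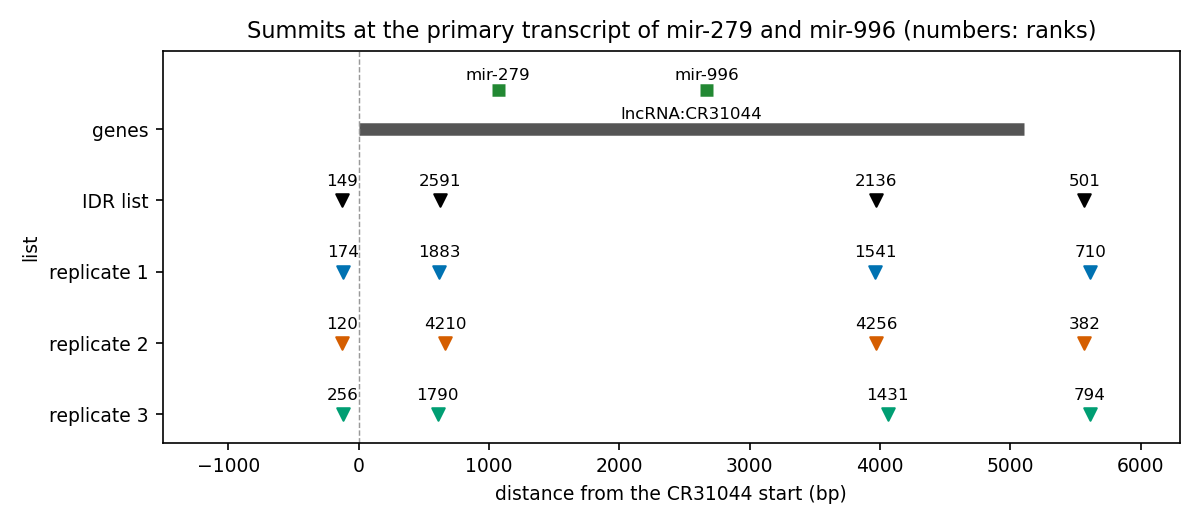
Summits along CR31044, the primary transcript of mir-279 and mir-996, in bp from its start (horizontal), in the reproducible list and, by their 4 best ranks, in each replicate; grey and green bars are the transcript and the hairpins, and numbers are ranks. The summit 124 bp before the start ranked 149, and its matches in the replicates lay 118 to 124 bp before the start.

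At CR43651, the transcript of mir-14, a microRNA that restrains cell death, the summit 65 bp upstream ranked 655, with 320, 5325 and 248 in replicates 1, 2 and 3. Replicate 2 stood far below the others there. The mir-14 hairpin had 2 more summits, ranked 902 and 3460. At CR45919, the transcript of mir-124, a neural microRNA, the summit 34 bp upstream ranked 2040, with 2381, 3126 and 1109. CR46006, whose RefSeq synonym names mir-276a and mir-276b, holds only mir-276a within its annotated span. Its summit, 56 bp upstream of the start nearest to mir-276a, ranked 2543, with 1531, 8034 and 1297. The mir-276b hairpin lies inside CR46004, which had a summit 76 bp upstream of its start, ranked 5782, with 2799, 15951 and 6208. CR46004 has no pri-mir synonym and is not counted in the 22. At CR43650, the transcript of mir-8, a microRNA of the miR-200 family, the rank was 3327, with 3670, 3290 and 3749, so all replicates ranked it alike. The other 3 transcripts were those of mir-10 (rank 4556), mir-1000 (ranks 4472 and 5843) and mir-184 (rank 5294). At mir-10 the ranks were 1965, 16291 and 3043, so that summit was strong in 2 replicates and far down the list in replicate 2. The transcripts of mir-9a, mir-1, mir-315, mir-252 and iab4 were among those with no summit at their start.

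The mature products of mir-279, mir-996, mir-124 and the mir-276 pair, from RefSeq release 6, show which share a seed; capitals mark bases 2 to 8, the seed, and all 5 are the 3′ arm of their hairpin.
mir-279, chr3R:29215651-29215672, plus strand: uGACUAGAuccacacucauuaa
mir-996, chr3R:29217244-29217265, plus strand: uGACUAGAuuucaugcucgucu
mir-124, chr2L:17566426-17566448, plus strand: uAAGGCACgcggugaaugccaag
mir-276a, chr3L:10365281-10365302, plus strand: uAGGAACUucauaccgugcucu
mir-276b, chr3L:10319846-10319867, plus strand: uAGGAACUuaauaccgugcucu
Those of mir-279 and mir-996 share one seed, and those of mir-276a and mir-276b another. The 3′ untranslated region of nerfin-1, 1612 bases in the Ensembl annotation, holds 4 matches to the seed of mir-279 and mir-996 (TCTAGTC) and none to the seeds of mir-124 and of the mir-276 pair. Of 13534 protein-coding genes with an annotated 3′ untranslated region, 2.19% hold at least 1 TCTAGTC in it. That share covers regions of every length, and no comparison with regions as long as that of nerfin-1 was made. The 4 matches, with the seed match in capitals, stand at bases 257, 691, 716 and 965 of the region and were looked for after the summit at CR31044 was seen.
nerfin-1 match, chr3L:910952-910973, plus strand: tgtaacttaattTCTAGTCagt
nerfin-1 match, chr3L:911386-911407, plus strand: atttctcgtcatTCTAGTCaca
nerfin-1 match, chr3L:911411-911432, plus strand: tcttgcattcctTCTAGTCact
nerfin-1 match, chr3L:911660-911681, plus strand: tcgagtgtgagcTCTAGTCatt
A seed match is a description of sequence, and no microRNA was measured.

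MicroRNA hairpins, which often lie far from the start of their primary transcript, had 11 summits, counted from the start of the hairpin or of a mature product within it. Of 231 hairpin genes away from coding starts, 12 (5.19%) had one within reach, some sharing a summit. The strongest lay 164 bp before mir-9378, in an intron of CG17124, and ranked 652, with 997, 487 and 1041 in replicates 1, 2 and 3. The summit at mir-9377, in an intron of Tis11, an mRNA decay factor gene, ranked 1554, with 2504, 1010 and 3766. Both ranked best in replicate 2. Of 30 listed microRNAs of neural development and growth, 3 had a summit within 500 bp of the hairpin: mir-14, mir-279 and bantam. Bantam is a growth-promoting microRNA. Its summit lay 293 bp past the end of the hairpin and ranked 4012, with 15138, 2391 and 7857. It was among the 7056 strongest in replicate 2 alone. The bantam hairpin lies inside the long RNA CR43334, on the same strand, which is not among the pri-mir genes counted above. The summit 78 bp upstream of the CR43334 start ranked 3225, with 2226 and 1185 in replicates 1 and 3 and no match in replicate 2. Another, 77 bp inside a later CR43334 start, ranked 6416 and was matched in replicate 3 alone, at 5399.

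Among 18 matched long non-coding RNAs with established names, 6 had a summit, beside 8.69% of long RNA genes that start away from coding starts. Some of the 18, such as Uhg2 and Uhg8, start within 500 bp of a coding start, so the bases of these shares differ. Whether named RNAs have summits more often than others was not tested. At roX2, an RNA of the male X-chromosome dosage compensation complex, the summit 62 bp upstream ranked 901, with 695, 1665 and 601 in replicates 1, 2 and 3. At Hsromega, the heat-shock RNA of the omega speckles of the nucleus, the summit 192 bp inside ranked 844, with 1548, 696 and 1011. Both were among the strongest peaks of all replicates. The bithorax complex RNA iab8 had 2 summits, ranked 1448 (1320, 2279 and 983 in the replicates) and 2865 (11132, 3436 and 15349). The second of these had the widest spread between replicates, 11913 ranks, among summits in the stronger part of the list with a match in each replicate. After it came summits at CR44220 (9519 ranks), CR44861 (9241), CR45531 (7272) and CR46006 (6737). The snoRNA host genes Uhg4, Uhg1 and Uhg5 had summits ranked 685, 2439 and 2540, the last of which lay nearest the snoRNA Me18S-C1366 inside Uhg5. At Uhg4 the replicate ranks were 617, 578 and 1059, whereas the Uhg1 summit was matched in replicate 1 alone, at 1653. No summit met the rule at roX1, cherub, bxd, yar, CRG or let7C.

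Summits at genes of small housekeeping RNAs ranked lower in the reproducible list than those at long RNAs, whose median rank was 3495. The 9 at snRNA genes, which encode splicing RNAs and 7SK, had a median rank of 4809, and 1 was in the stronger part of the list. That one, 217 bp inside 7SKa, the RNA that holds the elongation factor P-TEFb inactive, ranked 1901, with 1636, 5183 and 795 in replicates 1, 2 and 3. Next came U1:95Ca at 3829 and U6:96Ac at 4434. By genes, 8 of 29 snRNA genes away from coding starts (27.6%) had a summit, the highest share of any class, but from few genes. In 6 of the 9 windows fewer than 90% of 31-base words were unique on the 6 chromosome arms. Of the 8 snRNA genes with a summit, 5 have an identical copy elsewhere, against 8 of all 32 snRNA genes. Reads there may not all have been placed uniquely, and read placement was not tested. Of all 218 summits, 9 (4.13%) had a window with fewer than 90% unique words, against 0.332% of protein-coding promoter summits and 0.199% of distal summits. The 130 bases from 100 before to 30 after the first base of 7SKa hold the core of the snRNA promoter element, TTCCCAA, in capitals; within 100 bp upstream it stood at 7 of 8 snRNA genes with a summit and at 26 of all 32.
snRNA:7SKa, chr3R:7474967-7475096, minus strand: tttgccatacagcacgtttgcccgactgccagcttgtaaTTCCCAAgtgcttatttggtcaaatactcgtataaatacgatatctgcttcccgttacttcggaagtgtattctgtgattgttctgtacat

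The 13 summits at tRNA genes had a median rank of 5207. Of 258 tRNA genes away from coding starts, 20 (7.75%) had one within reach, since neighbours can share a summit. The strongest were at Ser-TGA-1-1, ranked 2959 and matched in replicate 2 alone at 4639, Asp-GTC-2-1, ranked 3241 with 3593, 6643 and 1501, and Val-AAC-2-1, ranked 4727 with 3684, 20211 and 2878. Of the 13, 10 lay upstream of the gene. Identical gene copies were held by 7 of 12 tRNA genes with a nearest summit, against 238 of all 290. The 8 summits at snoRNA genes, a class that includes guides of ribosomal RNA modification, had a median rank of 4758. Psi18S-176 ranked 2303, with 1142, 5723 and 1968, Me18S-C1366 ranked 2540 and Or-ACA6 ranked 2770. RNaseMRP RNA had a summit ranked 2441, while neither the 7SL genes, RNase P RNA nor any of 99 rRNA genes had one. Whether reads could be placed uniquely at these genes without a summit was not tested, so a missing summit does not show missing binding. The 16 summits at antisense RNAs had a median rank of 2770.5, and 14 of them lay upstream. Besides CR44429, the strongest were at CR45951, ranked 1036 with 564, 3270 and 516, and CR45281, ranked 1070 with 491 and 336 in replicates 1 and 3 and no match in replicate 2. At the foot of the list were Phe-GAA-1-4 at 7021, CR44758 at 7031 and U2:34ABb at 7051.

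**Figure D3:**
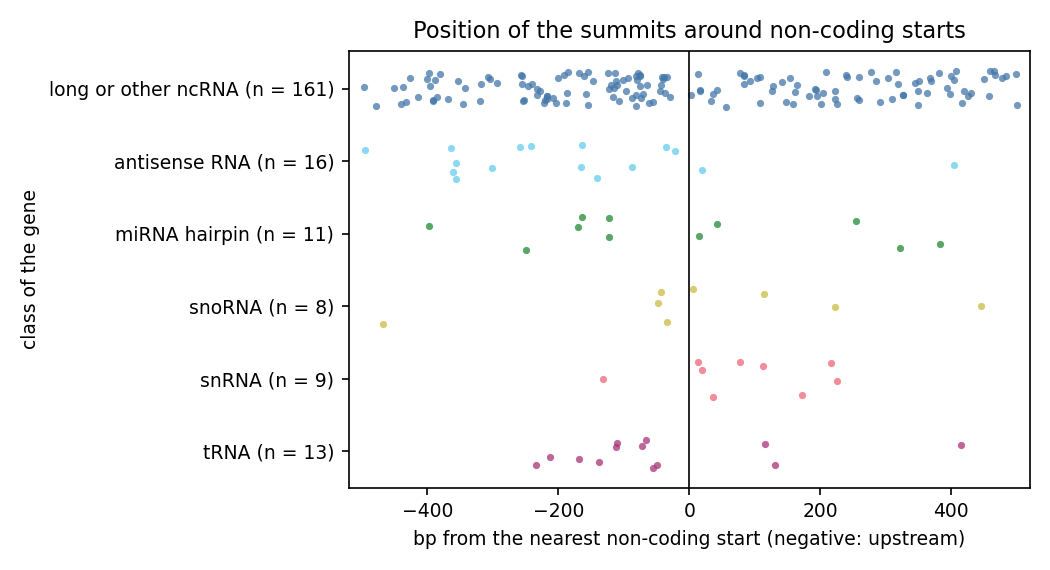
Position of each of the 218 summits in bp from the nearest non-coding start (horizontal, negative upstream) by class of gene (rows, points spread vertically for legibility). Of 13 summits at tRNA genes 10 lie upstream, and of 9 at snRNA genes 8 lie downstream.

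A summit counted as found in a replicate when one of the 7056 strongest peaks there had its summit within 100 bp. Of the 218, 178 (81.7%, Wilson 95% interval 76.0 to 86.2%) were found in replicate 1, where 78.2% of the whole list were. In replicate 2 there were 145 (66.5%, 60.0 to 72.4%), with 73.8% for the whole list. In replicate 3 there were 167 (76.6%, 70.6 to 81.7%), with 73.8% for the whole list. Replicate 2 was thus the lowest for these summits. Their mean was 74.9 ± 7.71% (SD, n = 3), against 76.0 ± 1.51% for protein-coding promoter summits and 74.6 ± 3.59% for distal summits. Relative to protein-coding promoter summits the share was 4.17 percentage points higher in replicate 1 and 2.14 higher in replicate 3, while in replicate 2 the difference was -9.55. The mean difference of -1.08 ± 7.41 points was smaller than its spread and gave p = 1 in the exact two-sided sign-flip permutation test (n = 3 replicates, smallest possible 0.25). Without replicate 2 it was 3.16 ± 1.44 points (n = 2), so its sign rests on that library. Relative to distal summits the mean difference was 0.342 ± 5.18 points (p = 1, same exact test, n = 3). It was -0.962 points without replicate 1 and -1.34 points without replicate 3. The reproducible list was itself made from these reads, so the shares describe spread between libraries and are no separate test of binding.

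**Figure D4:**
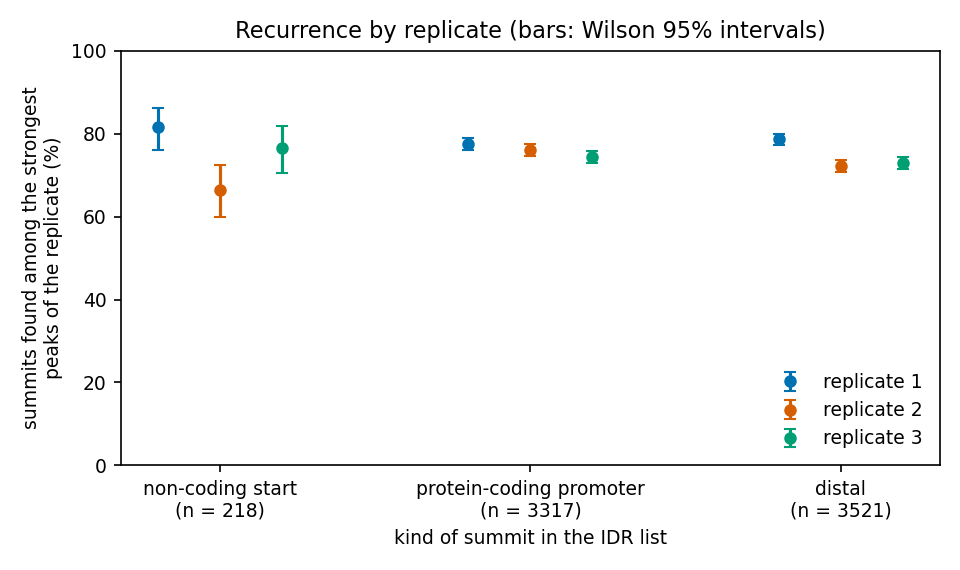
Percentage of summits of the reproducible list found among the 7056 strongest peaks of each replicate (vertical) for the 3 kinds of summit; points are replicates and bars Wilson 95% intervals. At non-coding starts replicates 1, 2 and 3 stand at 81.7, 66.5 and 76.6%, a wider range than for the other kinds.

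All 3 replicates held 96 of the 218 (44.0%, 47.3% of the whole list). Another 58 (26.6%) were found in replicates 1 and 3 and not in 2, against 18.7% of the whole list. Replicate 2 alone held 26 (11.9%, against 12.7%), and 1 summit was found in none (against 1.26%). With all 30000 peaks of a replicate, 213, 198 and 199 had a match in replicates 1, 2 and 3 (97.7, 90.8 and 91.3%). The same shares were 92.9, 92.0 and 90.4% for protein-coding promoter summits and 95.6, 93.6 and 93.6% for distal summits. G+C content differed between summits found and not found among the strongest peaks of replicate 2. Within 100 bp of the summit it averaged 46.7% over the 73 not found in replicate 2 and 38.6% over the 145 found. Among protein-coding promoter summits the same means were 45.6 and 37.4%, and among distal summits 46.5 and 37.4%. Of 181 summits with a match in all 3 full lists, 91 ranked worst in replicate 2, with G+C of 47.5 ± 7.26% (SD over summits), and 74 ranked best there, with 33.0 ± 6.37%. Only 16 ranked between. This split was not counted over the whole list, so it does not show whether these summits differ from others. Over all 218 G+C averaged 41.3%, against 39.3% at protein-coding promoter and 39.9% at distal summits. The part of G+C content in the replicate difference was not tested.

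Summits at tRNA, snRNA and snoRNA genes, 30 in all, were found in 80%, 50% and 70% in replicates 1, 2 and 3, against 83.1%, 68.9% and 77.4% of the 177 at long and antisense RNAs. The whole list stood at 78.2%, 73.8% and 73.8%. The difference of the small from the long and antisense RNAs was negative in each replicate, with a mean of -9.79 ± 8.20 points (SD, n = 3) and p = 0.25 in the exact sign-flip permutation test, the smallest possible. This comparison was not planned. The small RNA summits already ranked lower in the reproducible list, made from the same reads, so the difference is no separate result. The tRNA summits contributed 10, 5 and 10 of 13.

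The 50 bp to either side of each summit were searched on both strands for 12 short words, all tied by earlier work to a factor or element, and none of them contains another. GAGAG, bound by GAGA factor, a protein that opens chromatin, was at 43 of the 218 (19.7%, Wilson 95% interval 15 to 25.5%), where 13.8% of the whole list had it. Protein-coding promoter summits had it in 13.5% and distal summits in 13.7%. It stood within 50 bp of 12.1% of all non-coding starts away from coding starts and of 12.7% of coding starts. Long RNA genes had 32 of the 43 and antisense RNA genes 5, while none of the 13 tRNA summits had it. In the replicates' own lists the share at summits that meet the rule was 19.9%, 13.8% and 19.6%, against 17.1%, 9.81% and 17.3% at protein-coding promoter summits and 16.2%, 11.1% and 17.6% at distal summits. It was the highest of the kinds in each replicate. The mean difference was 3.03 ± 0.891 points from protein-coding promoter summits and 2.80 ± 0.864 points from distal summits, each with p = 0.25 (exact sign-flip permutation test, n = 3), the smallest possible.

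Words of housekeeping promoters were not found. TATCGATA, bound by DREF, a factor of proliferation genes, was at 0 of the 218, where 1.54% of the whole list had it. A count of 0 allows a share of up to 1.38% by the limit of 3 counts and of up to 1.73% by the Wilson interval, and the second of these holds the whole-list share. It was at 3.11% of protein-coding promoter summits and 0.170% of distal summits. GGTCACAC, bound by M1BP, a factor of ribosomal protein and other housekeeping genes, was also at 0, with 1.16% in the whole list, 2.32% at protein-coding promoter summits and 0.142% at distal summits. The non-coding starts themselves rarely have these words: TATCGATA stood at 0.320% and GGTCACAC at 0.175% of non-coding starts, against 4.48% and 4.68% of coding starts. In the replicates' own lists, TATCGATA was at none of the 226, 181 and 240 summits that meet the rule, and GGTCACAC at 1 of the 181 in replicate 2. The mean difference from protein-coding promoter summits was -3.11 ± 0.972 points for TATCGATA and -2.29 ± 0.0920 points for GGTCACAC, each negative in all 3 replicates, with p = 0.25 (exact sign-flip permutation test), the smallest possible. The rule leaves out the surroundings of coding starts, where these words are more common than at non-coding starts. A negative difference therefore follows from the choice of summits and is no separate result.

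CATTCC, the core of the word bound by Scalloped, was at 15 of the 218 (6.88%), where 7.26% of the whole list had it, against 6.24% at protein-coding promoter and 8.24% at distal summits. CAGCTG, an E-box of proneural bHLH factors, was at 7 (3.21%, with 4.58% in the whole list), CAGGTG at 3 (1.38%, with 2.24%) and CACGTG at 3 (1.38%, with 1.66%). For these 4 words the interval at the 218 summits holds the share of the whole list. CAGGTAG, bound by the early zygotic activator Zelda, was at 0 (0.539% in the whole list), and CAGGGGG, the core of the word of vertebrate INSM1, at 2 (0.917%, with 0.794%). TTCCCAA was at 3 (1.38%, with 1.87%), the tRNA promoter word GTTCGANNC at 1 (0.459%, with 0.808%) and CACACACA at 7 (3.21%, with 4.14%). A match is a stretch of letters and not a measured site.

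**Figure D5:**
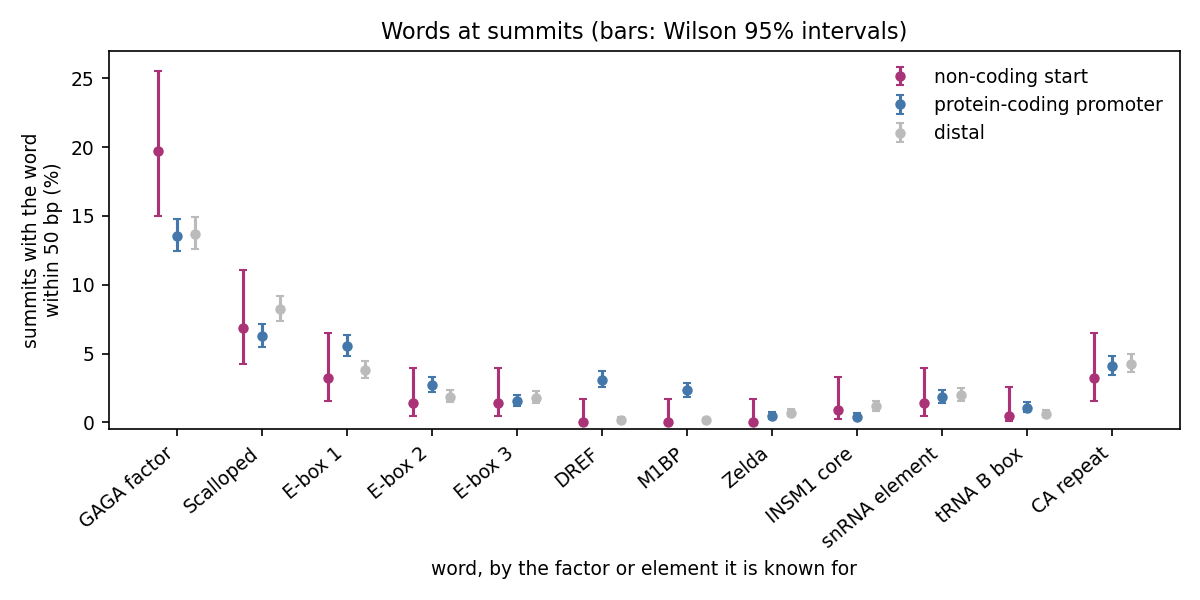
Percentage of summits with each of 12 words within 50 bp (vertical), by kind of summit, with Wilson 95% intervals; words are named by the factor or element they are known for, with E-boxes numbered in the order of the text. GAGA factor's word is at 19.7% of summits at non-coding starts, and the words of DREF and M1BP are at none of them.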

How the data were processed

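Peak lists on the dm6 build were used as deposited: 1 for each of 3 replicates and 1 for the pooled replicates, each of 30000 rows, and the IDR-thresholded list of 7056. Per the file headers, each was called against a control alignment, which was not used here. No source used here names the aligner, the peak caller or the threshold of the IDR (irreproducible discovery rate). The signal value of a peak was deposited by the authors with no normalization stated and served only to rank peaks within a list. The −log10 q-values the authors deposited are tied at a maximum for the reproducible list and were not used. The deposited summit offset gave the summit. Read depth is unknown, so the intervals cover counting of summits only. No deposited column was left unmapped.

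Starts, biotypes and exons came from Ensembl release 115 (BDGP6.54), sequence, microRNAs and pri-mir synonyms from RefSeq release 6, whose coordinates equal those of dm6. No paralog or repeat filter was applied. Pseudogenes and transposable elements were left out. All symbols listed were matched but 1; bantam, mir-263a, iab-8 and let-7-C were matched by their current symbols. Each summit went to the nearest start; mature microRNA starts were counted with their hairpins. Antisense RNAs were split from long RNAs after the annotation was seen. Python 3.11.15 with numpy 2.4.6, pandas 2.3.3, scipy 1.17.1 and matplotlib 3.10.9 was used, and the classification, matching and word search were tested on simulated data. The labels call the replicates biological; p-values measure the spread between these 3 libraries. Named genes are those of the 15 strongest summits, the 3 strongest of each class, the 5 genes with the most summits, the 5 widest rank spreads in the stronger part of the list, the 3 weakest summits and members of the microRNA, named RNA and housekeeping lists; pri-mir genes were added later. The summits, lists and words were chosen with earlier results of these data known. Alternatives were the distance, the match window, the word window, 1 start per gene, long RNAs alone, whole replicate lists, single replicates left out and, chosen after seeing the data, no mature microRNA starts.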

Additional observations from a re-analysis of the deposited data

How the results depend on the processing

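Of 72 alternative values, 51 counted as unchanged, 11 moved and 10 changed sign. A count was unchanged within a fixed factor of the main value, and a difference if it kept its sign, whatever its size. Other levels had to stay within the SD over replicates or summits, and word shares within the Wilson interval. All sign changes were in differences of found shares, each smaller than its spread except the one from protein-coding promoter summits without replicate 2 (3.16 ± 1.44). The found share of summits at non-coding starts minus that of distal summits became -2.74 points with a 250-bp limit, -0.312 with a 50-bp match, -0.524 with a 250-bp match and -0.953 with whole replicate lists, and ran from -1.34 to 3.33 with single replicates left out (-0.962 without replicate 1 and -1.34 without replicate 3). Minus that of protein-coding promoter summits it became 0.589 points with long RNAs alone, 0.452 with a 50-bp match and 1.52 with whole replicate lists, and ran from -3.70 to 3.16 with single replicates left out (3.16 without replicate 2). The share of replicate peaks that meets the rule became 2.14% with a 250-bp limit, 4.07% with a 1000-bp limit and 2.47% with long RNAs alone. The found share became 66.7% with a 50-bp match and 93.3% with whole lists. Counting every gene in reach put 14 summits at snoRNA genes, against 8 by the nearest start. With 100 bp to each side, GAGAG was at 33.9%, CATTCC at 15.6%, CAGCTG at 6.88%, CAGGTG at 4.13% and CACACACA at 7.34%, which follows from the wider window. These shares were taken at the 218 summits alone, so the comparison with other summits was not repeated in the wider window. Leaving out single replicates gave found shares of 71.6 to 79.1% and rule shares of 2.88 to 3.30%. The rule gave 230 summits with 1 start per gene, 155 at 250 bp, 290 at 1000 bp, 178 with long RNAs alone and 218 without mature microRNA starts. No paired analysis was possible because all samples form 1 group. With 3 replicates no exact p can fall under 0.25, and a word at 0 of 218 summits is limited only to a share of up to 1.38% (3 counts) or 1.73% (Wilson).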
